A study of Mus musculus with 12 samples.

Results

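TCR β chain segments were followed in CD8 T cells of the pancreatic islets that did not bind the IGRP tetramer. The members were all V (TRBV) and J (TRBJ) labels of TRB contigs, the assembled β chain transcripts, in the 2 islet IGRP- scTCR-seq libraries, and 34 labels were found, 22 TRBV and 12 TRBJ, of 34 in the whole series. Only barcodes with exactly 1 TRA and 1 TRB contig were used, and cells of a library with identical CDR3 nucleotides in both chains formed a clone. The mice were prediabetic NOD/ShiLtJ females of 10 to 15 wk, a strain that develops autoimmune diabetes without any transgene, and islets of 10 mice were pooled in each of 2 rounds. Cells were sorted as CD45.1+, CD8+ and negative for CD4, B220 and CD11b, and then by the Kd tetramer loaded with NRP-V7, a mimotope of the islet antigen IGRP. The islet IGRP- group is the tetramer-negative gate and the islet IGRP+ and spleen IGRP+ groups are the tetramer-positive gates of the same mice. Cells cannot be traced to a mouse within a pool, so clones were the units counted, and p-values cover the sampling of clones from 2 pools. The rounds also differed in sequencing kit and depth, which cannot be told apart from the mice of each pool.

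The β chain of a T cell receptor is assembled in the thymus by joining 1 V, 1 D and 1 J segment of the Trb locus. The V segment encodes the CDR1 and CDR2 loops, which mostly face the MHC molecule, while the V-D-J junction forms CDR3, the loop that mostly faces the peptide. Every daughter of a T cell inherits the same rearrangement, so cells with the same paired CDR3 sequences descend from 1 precursor in most cases. If antigen drives division, the segments of dividing clones can differ from those of clones seen only once, which is the question asked here by comparing expanded clones (3 or more cells) with singlet clones (1 cell), each counted once.

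Round 1 gave 3235 paired cells in 1703 clones, and Round 2 gave 5875 paired cells in 3467 clones. Singlet clones numbered 1452 and 3043, clones of 2 cells 93 and 185, and expanded clones 158 and 239 in Rounds 1 and 2. Expanded clones held 49.4% and 41.9% of the paired cells, and the largest had 252 and 111 cells. A TRB contig rested on a median of 8 UMIs per cell in Round 1 and 10 in Round 2. The median was 6 and 8 UMIs in singlet clones and 10 and 13 in expanded clones. RNA of the same barcodes fitted the sort: Cd3e was detected in 98.5% and 98.0% of paired cells and Cd8a in 80.7% and 77.2%, against 0% and 0.0693% for Cd4. Among B cell, myeloid and natural killer cell markers, the highest share was 2.21% for Cd79b in Round 1. Any of Prss2, Cela1 and Try5, which are exocrine genes, had a UMI in 7.20% and 9.35% of paired cells. This share was higher in cells of expanded clones, 10.6% and 13.3%, than in singlet cells, 3.49% and 6.18%. Cells of expanded clones also had more RNA UMIs, with medians of 4895 and 4715.5 against 3816 and 3739. Scaled to total UMIs, exocrine counts were 35.4 and 95.8 CPM in cells of expanded clones against 33.0 and 153 CPM in singlet cells. By this measure the groups were close in Round 1, and expanded clones were lower in Round 2. The part of exocrine RNA in the results was not tested. Of the paired barcodes, 16 and 26 were also listed in another scTCR-seq library of the same round. Paired clones also found in a tetramer-positive library numbered 13 and 10, 7 and 4 of them expanded. Only 1 paired clone occurred in both rounds.

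For most β segments no difference between expanded and singlet clones was detectable, with 2 exceptions among V labels. Of 31 segments with at least 10 clones in each round, 2 were called by an exact Cochran-Mantel-Haenszel test stratified by round (6.45% of segments, Benjamini-Hochberg adjusted p under 0.05 and the same direction in both rounds). TRBV3 was higher in expanded clones and the label TRBV13-2 was lower, and no TRBJ segment was called. The TRBV13-2 call depended on how labels were counted. Merged with a second label that also names TRBV13-2, it was lost (adjusted p = 0.0618 by the exact stratified test). At an unadjusted p under 0.05, 4 segments passed. Among the segments not called, the odds ratio of expanded against singlet clones ranged from 0.411 for TRBV20 to 1.74 for TRBV31, and the differences in share within a round from -6.40 to 5.40 percentage points. In Round 1 alone Fisher's exact test called the same 2 segments (6.45%), and in Round 2 alone it called only TRBV13-2 (3.12% of 32). No odds ratio differed between rounds after adjustment (0% of 31, Zelen's exact test), and 2 differed at an unadjusted p under 0.05, TRBV3 and TRBV13-1.

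**Figure D1:**
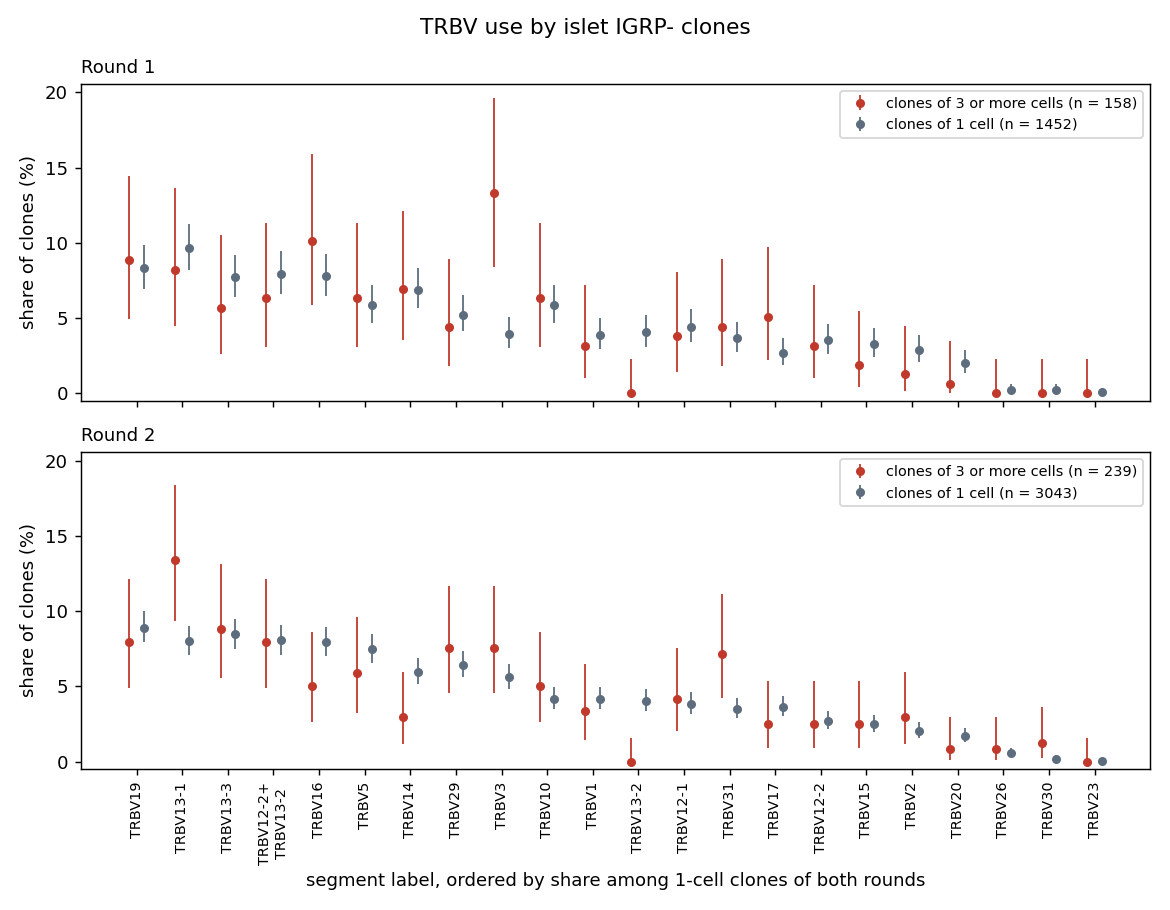
Share of clones with each TRBV label (y axis, percent) in Round 1 (top) and Round 2 (bottom), for clones of 3 or more cells (red) and of 1 cell (grey), with exact 95% Clopper-Pearson intervals. TRBV3 is at 13.3% of expanded against 3.93% of singlet clones in Round 1. Counted by the label of most cells of a clone, TRBV13-2 is at 0 among expanded clones in both rounds.

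TRBV3 was the V segment most often found in expanded clones of Round 1. It was carried by 21 of 158 expanded clones (13.3%, exact 95% interval 8.42 to 19.6%) and by 57 of 1452 singlet clones (3.93%, 2.99 to 5.06%), an odds ratio of 3.75 (Fisher's exact test, adjusted p = 0.000229). In Round 2 it was carried by 18 of 239 expanded clones (7.53%, 4.52 to 11.6%) and 171 of 3043 singlet clones (5.62%, 4.83 to 6.5%), an odds ratio of 1.37 (adjusted p = 0.876 by the same exact test). The intervals of the groups did not overlap in Round 1 and overlapped in Round 2. Over both rounds the Mantel-Haenszel odds ratio was 2.07 (95% interval 1.45 to 2.97, adjusted p = 0.00269 by the exact stratified test), and without Round 1 the call was lost. The difference between the rounds had an unadjusted p of 0.00761 and an adjusted p of 0.236 by Zelen's exact test. Intervals on shares cover counting error only.

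By clone size, TRBV3 made up 3.93%, 4.30%, 10.1%, 19.6% and 12.1% of Round 1 clones of 1, 2, 3 to 4, 5 to 9 and 10 or more cells. The corresponding shares in Round 2 were 5.62%, 6.49%, 5.36%, 6.67% and 11.9%. Of the clones of 10 or more cells 4 of 33 and 8 of 67 carried it. The shares of the rounds lay furthest apart in the class of 5 to 9 cells, where their intervals, 9.36 to 33.9% and 1.85 to 16.2%, overlapped. Expanded TRBV3 clones held 14.7% and 14.9% of the cells in expanded clones, and their largest had 95 cells in Round 1 and 96 in Round 2.

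**Figure D2:**
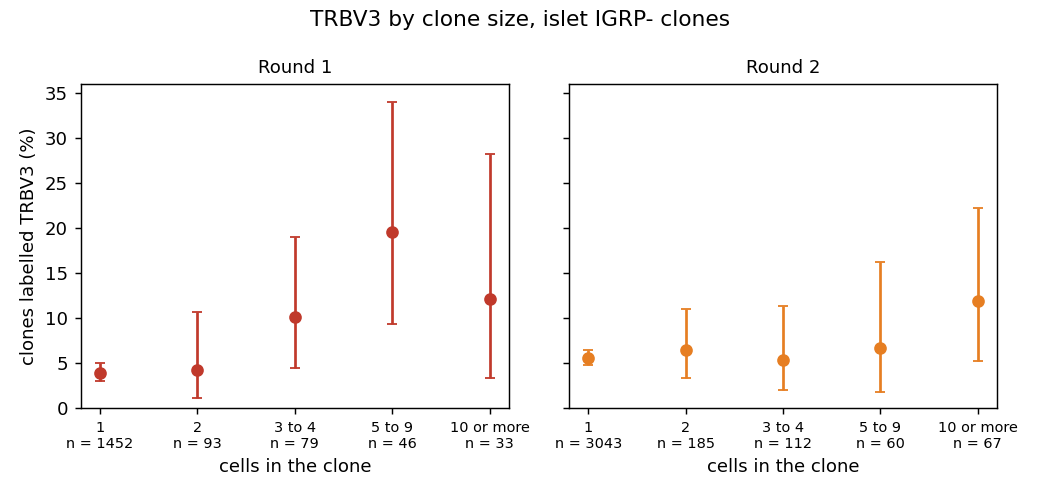
Share of clones labelled TRBV3 (y axis, percent) by the number of cells in the clone (x axis, with the number of clones), for Round 1 (left) and Round 2 (right); bars are exact 95% Clopper-Pearson intervals. The share is 19.6% for Round 1 clones of 5 to 9 cells and near 12% for clones of 10 or more cells in both rounds.

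The 39 expanded TRBV3 clones were not one receptor. They used 9 TRBJ segments in each round, with 11 TRAV partners in Round 1 and 12 in Round 2, and their CDR3β spanned 11 to 18 and 11 to 15 amino acids. The study reports the α segment TRAV16N in nearly all tetramer-positive islet cells. TRAV16N was the partner of 8 of the 21 expanded TRBV3 clones of Round 1 (38.1%) against 6 of 57 singlet TRBV3 clones (10.5%). In Round 2 it was the partner of 4 of 18 (22.2%) against 35 of 171 (20.5%). Over all V segments TRAV16N was carried by 13.9% and 12.1% of expanded clones and by 10.9% and 11.3% of singlet clones. Leaving out every TRAV16N clone, a choice made with the values in view, lowered the TRBV3 odds ratio to 1.74 and ended the call (adjusted p = 0.146 by the exact stratified test). The shares were then 9.56% against 3.94% in Round 1 and 6.67% against 5.04% in Round 2. Of the 39 clones, 2 were also in a tetramer-positive library of Round 1, and with all such clones left out the odds ratio was 2.04 (adjusted p = 0.00506, same exact test).

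TRBV3 is encoded by Trbv3 (GRCm38 chromosome 6, 41048290 to 41048828, plus strand), a functional V gene near the 5′ end of the cluster. The CDR3β sequences of the following clones are given because they recur among expanded TRBV3 clones with the same J segment. Capitals mark bases that match neither the 3′ end of Trbv3 nor the J segment in the GENCODE transcripts of the C57BL/6 reference, so they hold the D segment and the added bases. The first 4 are all the expanded clones that joined TRBV3 to TRBJ1-2:
Round 2, TRAV16N-TRAJ37, 61 cells: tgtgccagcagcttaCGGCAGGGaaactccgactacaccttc
Round 1, TRAV16N-TRAJ37, 8 cells: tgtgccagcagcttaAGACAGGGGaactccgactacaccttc
Round 1, TRAV10D-TRAJ52, 3 cells: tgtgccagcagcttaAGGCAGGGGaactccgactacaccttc
Round 2, TRAV5D-4-TRAJ40, 3 cells: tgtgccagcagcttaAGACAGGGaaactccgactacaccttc
These 4 sequences of 42 bases differed from each other at 1 to 3 bases and all translated to the same CDR3β. The clones of 61 and 8 cells also translated to the same CDR3α, although they came from different pools of mice. Among singlet clones, 1 of the 2 TRBV3-TRBJ1-2 clones of Round 1 and 0 of the 8 of Round 2 had this CDR3β. It was carried by 76 paired cells in all and by no paired clone of the islet IGRP+ or spleen IGRP+ libraries.

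A second group joined TRBV3 to TRAV14N-3 and TRAJ12 in Round 2, with TRBJ1-5:
Round 2, 96 cells: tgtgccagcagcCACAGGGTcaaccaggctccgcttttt
Round 2, 37 cells: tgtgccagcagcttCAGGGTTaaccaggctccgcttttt
Both clones had 39 bases of CDR3β, which differed at 3 positions and in 1 amino acid, and their CDR3α differed in 1 amino acid. A further group paired TRBV3 with TRAV16N-TRAJ56, and 4 of its members used TRBJ2-4:
Round 1, 12 cells: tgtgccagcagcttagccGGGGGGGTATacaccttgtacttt
Round 1, 11 cells: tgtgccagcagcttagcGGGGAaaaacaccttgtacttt
Round 1, 4 cells: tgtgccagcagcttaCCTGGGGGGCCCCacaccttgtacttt
Round 2, 9 cells: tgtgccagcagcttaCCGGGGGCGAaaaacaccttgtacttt
The clones of 12 and 9 cells, from different rounds, translated to the same CDR3α, while their CDR3β differed in 4 amino acids. The largest TRBV3 clone of Round 1, of 95 cells with TRAV10N-TRAJ21 and TRBJ2-1, was 1 of the 2 clones also found in a tetramer-positive library.

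The label TRBV13-2 was found in 0 of 158 and 0 of 239 expanded clones, with exact Clopper-Pearson intervals reaching 2.31% and 1.53%. It was found in 59 of 1452 (4.06%) and 123 of 3043 (4.04%) singlet clones (adjusted p = 7.37e-06 by the exact stratified test). At a set limit of 3 counts, shares of 1.90% and 1.26%, it was 2.14-fold lower in Round 1 and 3.22-fold lower in Round 2. These folds are not lower bounds, since the exact intervals reach above that limit. A second label, TRBV12-2+TRBV13-2, which names 2 segments for 1 contig, was carried by 10 (6.33%) and 19 (7.95%) expanded clones and by 115 (7.92%) and 245 (8.05%) singlet clones. Cells of 1 clone were found with both labels: 28 clones had more than 1 V label, and in all 28 the labels were these 2. The largest such clones had 8 and 32 cells with TRBV13-2 and the combined label in Round 1, and 12 and 42 in Round 2:
Round 1, TRAV6-5-TRAJ40, TRBJ2-7, 40 cells: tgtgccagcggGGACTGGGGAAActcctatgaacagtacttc
Round 2, TRAV9N-4-TRAJ4, TRBJ2-3, 54 cells: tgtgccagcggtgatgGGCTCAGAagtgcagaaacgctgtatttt
Here capitals mark bases outside the ends of Trbv13-2 and the J segment. A clone took the label of most of its cells, the combined label on a tie, while a singlet clone has the label of its 1 cell.

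Counted per cell, TRBV13-2 was the label of 12.2% and 13.6% of the cells with either label in expanded clones, and of 33.9% and 33.4% in singlet clones. Of the 29 expanded clones with either label, 5 of 10 and 11 of 19 held at least 1 cell labelled TRBV13-2. Contigs with the combined label were longer, with medians of 568 and 567 bases against 532 and 535, and rested on medians of 7 and 10 UMIs against 5 and 7. RNA led with Trbv13-2 in 227 of 239 and 445 of 469 cells with the combined label and in 72 of 78 and 148 of 157 cells labelled TRBV13-2. Trbv12-2 and Trbv13-2 lie 2031 bases apart on chromosome 6 (41118851 to 41119364 and 41121396 to 41121832). Counting both labels as 1 segment, a choice made with the values in view, gave 10 of 158 expanded (6.33%) against 174 of 1452 singlet clones in Round 1 and 7.95% against 12.1% in Round 2. The odds ratio was then 0.576 (95% interval 0.391 to 0.850) and the call was lost (adjusted p = 0.0618 by the exact stratified test), which left TRBV3 as the 1 call among 30 segments (3.33%). Taking the label of 1 barcode per clone instead of the label of most cells put TRBV13-2 in 2 of 158 and 2 of 239 expanded clones, so that the count of 0 depended on the majority label, and the call held (odds ratio 0.240, 0.0887 to 0.652, adjusted p = 0.0134 by the exact stratified test). The part of contig length and UMI number in the difference between labels was not tested.

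Other V segments with the largest use among expanded clones were TRBV13-1, TRBV19 and TRBV13-3. TRBV13-1 was found in 8.23% of expanded and 9.64% of singlet clones in Round 1 and in 13.4% and 7.99% in Round 2. Its odds ratio was 0.840 in Round 1 and 1.78 in Round 2, and neither round nor both together passed (adjusted p = 0.968, 0.0951 and 0.306 by the exact tests). It was called in Round 2 when clones of 2 cells were counted as expanded and when TRAV16N clones were left out. TRBV31, the V gene that lies downstream of the J segments in inverted orientation, was at 4.43% against 3.65% in Round 1 and 7.11% against 3.52% in Round 2 (odds ratio 1.74, 1.12 to 2.71, adjusted p = 0.189 by the exact stratified test). Its Round 2 shares were 3.52%, 4.32%, 5.36%, 6.67% and 10.4% in clones of 1, 2, 3 to 4, 5 to 9 and 10 or more cells, with an interval of 4.30 to 20.3% in the last class. TRBV19 was at 8.86% against 8.33% and 7.95% against 8.91%, an odds ratio of 0.953 (0.657 to 1.38). TRBV13-3, the V segment of most tetramer-positive receptors, was at 5.70% against 7.71% and 8.79% against 8.45%, an odds ratio of 0.923 (0.626 to 1.36). Both intervals include 1 and leave room for a change in either direction.

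TRBV16 showed how cells and clones differ. It was the label of 15.3% of all paired cells of Round 1 but of 10.1% of expanded clones, and the largest clone, of 252 cells, carried it. That clone joined TRAV6N-7-TRAJ18 to TRBV16 and TRBJ2-2 and was also seen in a tetramer-positive library. The largest clone of Round 2, with 111 cells, joined TRAV5-1-TRAJ15 to TRBV1 and TRBJ1-3, and it too was seen there. Among the 5 largest clones of each round, TRBV3 was used by 3, TRBV16 by 2 (both in Round 1), TRBV10 by 1 in each round, and TRBV15, TRBV1 and TRBV5 by 1 each. TRBV23, TRBV26 and TRBV30 had fewer than 10 clones in at least 1 round. TRBV23 was in 1 and 2 singlet clones and no expanded clone. TRBV26 was in 3 and 18 singlet clones and in 0 and 2 expanded clones, and TRBV30 was in 3 and 6 singlet clones and in 0 and 3 expanded clones.

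**Figure D3:**
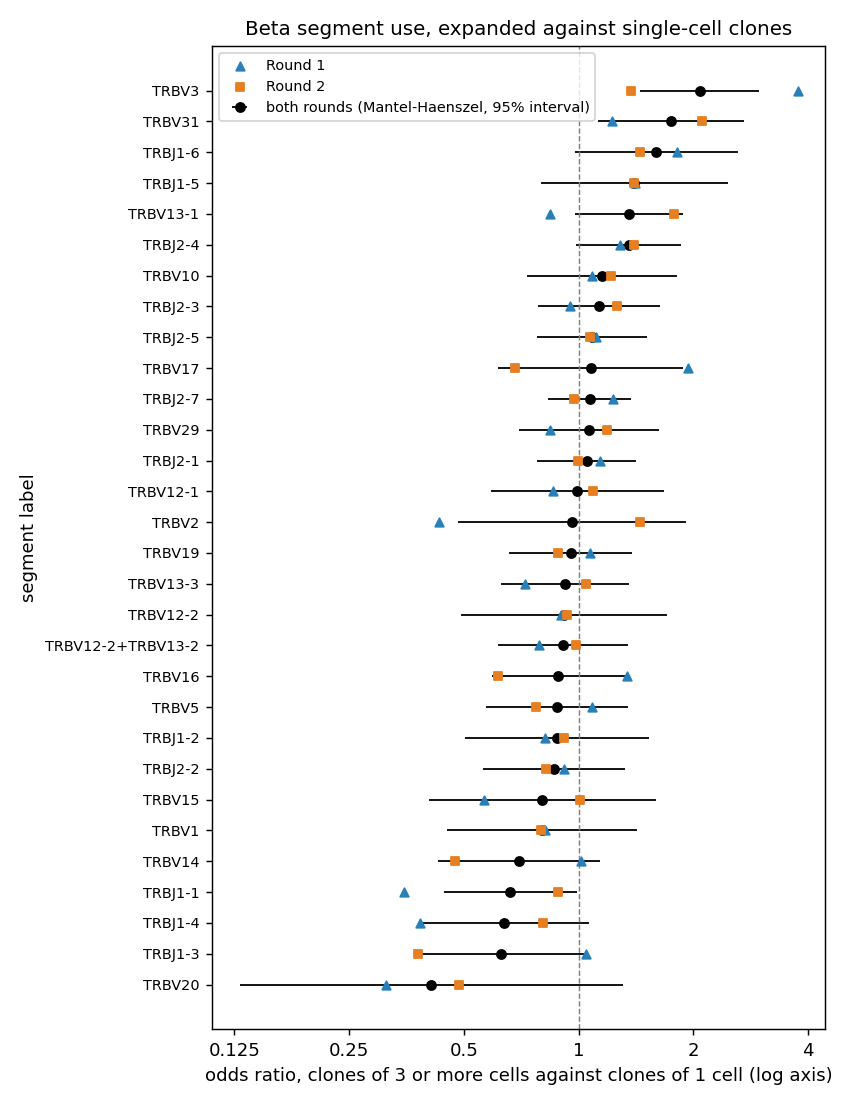
Odds ratio of segment use in clones of 3 or more cells against clones of 1 cell (log axis) for 30 segments; black points and bars are Mantel-Haenszel values over both rounds with 95% intervals, triangles Round 1 and squares Round 2. TRBV13-2, with no expanded clone, is not drawn. TRBV3 lies highest over both rounds, at 2.07, and in Round 1, at 3.75, but not in Round 2, at 1.37, where TRBV31 lies highest at 2.10.

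J segments follow the V gene cluster in 2 groups, each with its own D segment and constant gene. TRBJ2-7 was the most used by both kinds of clone, with 24.1% of expanded and 20.5% of singlet clones in Round 1 and 20.1% and 20.6% in Round 2 (odds ratio 1.07, 0.833 to 1.37). TRBJ2-1 was at 15.2% against 13.6% and 13.0% against 13.0% (odds ratio 1.05, 0.779 to 1.41). TRBJ2-4 was at 10.8% against 8.61% and 13.4% against 9.99% (odds ratio 1.35, 0.986 to 1.85, adjusted p = 0.306 by the exact stratified test). TRBJ2-2 was at 6.96% against 7.58% and 5.44% against 6.54% (odds ratio 0.860, 0.560 to 1.32). Its share of paired cells was 16.3% in Round 1 and 4.94% in Round 2, and the Round 1 clones of 252 and 104 cells carried it.

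Within the first group TRBJ1-1, TRBJ1-4 and TRBJ1-2 had lower shares among expanded clones in both rounds and TRBJ1-5 and TRBJ1-6 higher ones, and none passed the adjusted threshold. TRBJ1-1 was in 6 of 158 expanded against 148 of 1452 singlet clones (10.2%) in Round 1 and at 8.79% against 9.86% in Round 2 (odds ratio 0.661, 0.442 to 0.988, adjusted p = 0.306 by the exact stratified test). TRBJ1-4 was at 2.53% against 6.34% and at 5.02% against 6.15% (odds ratio 0.636, 0.380 to 1.06, adjusted p = 0.335, same exact test). TRBJ1-2 was at 3.16% against 3.86% and 3.77% against 4.11% (odds ratio 0.876, 0.503 to 1.52). TRBJ1-5 was at 3.16% against 2.27% and 3.77% against 2.73% (odds ratio 1.40, 0.795 to 2.46). TRBJ1-6 was at 5.70% against 3.24% and 4.18% against 2.92% (odds ratio 1.60, 0.975 to 2.61, adjusted p = 0.306, same exact test). TRBJ1-3 was at 6.33% against 6.06% in Round 1 and at 2.51% against 6.38% in Round 2. Its odds ratios were 1.05 and 0.378 (adjusted p = 0.968 and 0.0951 by Fisher's exact test). All TRBJ1 segments together, a count made after these values were seen and given without a test, were in 24.7% and 28.0% of expanded clones and in 32.0% and 32.1% of singlet clones. The J label and the constant gene of the same contig belonged to the same group in 100% of the clones with a named constant gene.

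**Figure D4:**
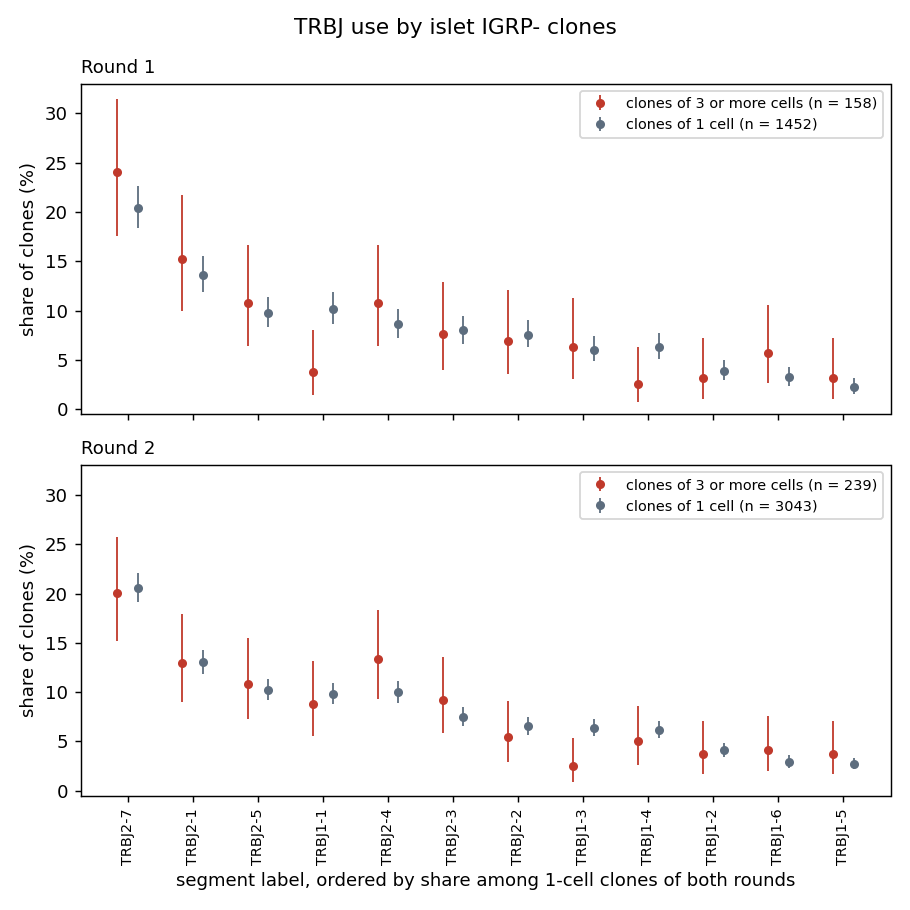
Share of clones with each TRBJ label (y axis, percent) in Round 1 (top) and Round 2 (bottom), for clones of 3 or more cells (red) and of 1 cell (grey), with exact 95% Clopper-Pearson intervals. TRBJ2-7 leads in all 4 groups, between 20.1% and 24.1%. The intervals of TRBJ1-1 are apart in Round 1 only, and those of TRBJ1-3 in Round 2 only.

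No difference in CDR3β length between expanded and singlet clones was detectable. The median was 14 amino acids in each group and round, and the mean was 14.1 ± 1.37 (SD over 158 expanded clones) against 13.9 ± 1.49 in Round 1 and 14.0 ± 1.59 against 13.9 ± 1.47 in Round 2. Of 8 lengths tested by the exact stratified test, 0 were called (0%), none had an unadjusted p under 0.05, and their odds ratios lay between 0.723 and 1.37. The length of 14 amino acids was found in 34.8% against 30.6% and in 26.4% against 29.0% of clones. The widest gaps in a round were 16 amino acids in Round 2, at 13.8% against 9.23%, and 14 amino acids in Round 1.

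Some expanded receptors recurred between the separate pools of mice. Of the 37762 possible pairs of an expanded Round 1 clone and an expanded Round 2 clone, 13 shared all 4 segments, TRAV, TRAJ, TRBV and TRBJ (34.4 per 100000 pairs), in 11 combinations. Among the 4418436 pairs of singlet clones, 68 did (1.54 per 100000). TRBV3 was in 2 of the 11 combinations, TRBV19 in 3, TRBV13-1 and TRBV5 in 2 each, and TRBV16 and TRBV17 in 1 each. Pairs with the same V, J and translated CDR3β numbered 16 among expanded clones (42.4 per 100000), in 6 sets, and 30 among singlet clones (0.679 per 100000), in 24 sets. Pairs share clones and are not independent, so no test was made.

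The 6 sets comprised 19 clones, and apart from the TRBV3-TRBJ1-2 set printed above, the following sequences show how they were built. Capitals again mark bases outside the V and J ends. In a TRBV19-TRBJ2-7 set all 4 clones used TRAJ49, and 4 different nucleotide sequences translated to 1 CDR3β:
Round 1, TRAV3-1, 10 cells: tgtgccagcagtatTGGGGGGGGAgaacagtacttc
Round 1, TRAV12D-2, 5 cells: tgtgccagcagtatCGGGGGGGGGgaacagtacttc
Round 2, TRAV12D-2, 6 cells: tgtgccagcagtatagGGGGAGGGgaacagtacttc
Round 2, TRAV8D-2, 3 cells: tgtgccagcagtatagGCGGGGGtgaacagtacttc
In a TRBV13-1-TRBJ1-4 set all 4 clones used a TRAV4 family segment, 3 of them with TRAJ18:
Round 1, TRAV4-3-TRAJ18, 4 cells: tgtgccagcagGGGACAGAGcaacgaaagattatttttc
Round 1, TRAV4-2-TRAJ18, 3 cells: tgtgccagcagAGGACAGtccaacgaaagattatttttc
Round 2, TRAV4D-4-TRAJ18, 18 cells: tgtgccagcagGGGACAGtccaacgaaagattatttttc
Round 2, TRAV4-3-TRAJ50, 3 cells: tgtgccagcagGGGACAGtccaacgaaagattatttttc
A second TRBV13-1-TRBJ1-4 set had 8 cells in Round 1 and 3 in Round 2, both in TRAV4-3 clones. In the set with the combined TRBV12-2+TRBV13-2 label and TRBJ2-7, all 3 clones used TRAJ33. The TRBV5-TRBJ2-1 set had the same nucleotides in both rounds, in a clone of 3 cells with TRAV12D-2-TRAJ23 and a clone of 35 cells with TRAV12D-2-TRAJ15:
Rounds 1 and 2, TRBV5-TRBJ2-1: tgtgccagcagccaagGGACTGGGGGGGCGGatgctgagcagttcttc
None of the 6 sets held the same paired clone in both rounds. Of the 19 clones, 1 was found in a tetramer-positive library, the TRAV14D-2-TRAJ33 clone of 12 cells in Round 2.

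Against expanded tetramer-positive islet clones, the tetramer-negative ones differed in 5 of 28 segments (17.9%, exact stratified test, clones found in both islet gates left out). This kept 156 of the 158 and all 239 expanded tetramer-negative clones. Most of the 7 and 4 expanded clones also found in a tetramer-positive library, spleen included, therefore stayed in. With clones of both kinds kept, the same 5 segments were called. TRBV13-3 was in 9 of 156 tetramer-negative and 17 of 24 tetramer-positive clones in Round 1 (5.77% and 70.8%) and in 21 of 239 and 31 of 37 in Round 2 (8.79% and 83.8%). TRBJ2-4 and TRBJ2-7 were also lower in the tetramer-negative clones. TRBJ2-4 was at 10.9% against 37.5% and 13.4% against 29.7% (odds ratio 0.292, 0.158 to 0.537), and TRBJ2-7 was at 23.7% against 45.8% and 20.1% against 48.6% (odds ratio 0.303, 0.174 to 0.529). TRBJ2-1 and TRBJ2-5 were higher, at 15.4% and 10.9% of tetramer-negative clones in Round 1 and 13.0% and 10.9% in Round 2. Of the 61 tetramer-positive clones, TRBJ2-1 was in 1 and TRBJ2-5 in 0. Neither was called in either round alone, and TRBJ2-1 was not called when clones of 2 cells were included. TRBV3 was in 12.8% against 1 of 24 clones in Round 1 and in 7.53% against 2 of 37 in Round 2 (odds ratio 2.05, 0.615 to 6.85), which did not pass (adjusted p = 0.446 by the exact stratified test).

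Cells of expanded and singlet clones differed in their RNA as well as in clone size. At least 1 UMI of Pdcd1, Lag3, Havcr2, Tigit, Cxcr6 or Gzmb, coinhibitory receptors, a homing receptor and a granzyme, was found in 52.6% and 54.4% of singlet cells and in 98.0% and 97.8% of cells of expanded clones. Of the 6 genes Tigit had the highest share, 37.6% and 38.9% of singlet cells against 87.7% and 87.8%. Gzmb was in 7.33% and 9.55% against 16.9% and 22.1%, and Havcr2 in 1.54% and 1.24% against 11.7% and 16.1%. Ccr7, a homing receptor of naive and central memory T cells, moved the other way, with a UMI in 74.2% and 83.9% of singlet cells and in 21.0% and 26.2% of cells of expanded clones. Lef1, a transcription factor of the same cells, had a UMI in 65.4% and 64.7% against 15.4% and 13.6%. Cells of expanded clones had more RNA UMIs, as given above, and the part of depth in these shares was not tested. A UMI can also come from free RNA, and the sorted libraries hold no cell type that should lack the 6 genes, so no background share can be given for them. The exocrine genes, which T cells should lack, had a UMI in 3.49% and 6.18% of singlet cells. The split of singlet cells by these transcripts is therefore one of detected RNA, and how far it follows cell state was not tested. When only singlet clones with an activation transcript were kept, TRBV3 was at 4.91% and 5.93% of them, the odds ratio was 1.84 and the call held (adjusted p = 0.0355 by the exact stratified test). Within singlet clones, those with an activation transcript differed from those without in 1 of 31 segments (3.23%), the label TRBV13-2, at 3.05% against 5.15% in Round 1 and 3.21% against 5.08% in Round 2 (odds ratio 0.607, 0.448 to 0.821, adjusted p = 0.0391 by the exact stratified test). With both TRBV13-2 labels as 1 segment, the shares were 10.2% against 13.7% and 10.2% against 14.7% (odds ratio 0.679, 0.566 to 0.814, adjusted p = 0.000899, same exact test, a choice made with the values in view). TRBV13-3 was at 6.77% against 8.98% and 7.23% against 9.80% (adjusted p = 0.0543 by the exact stratified test). TRBV3 was at 4.91% against 2.95% and 5.93% against 5.16% (adjusted p = 0.344, same exact test). Cells with an activation transcript had more RNA UMIs, with medians of 4247 against 3635 and 4057 against 3436, and the part of depth in these differences was not tested. The singlet clones enter this comparison and the one with expanded clones, so their results are not independent.

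V gene RNA of the same cells gave a separate reading of the labels. Trbv transcripts were found in 97.1% and 97.7% of the paired cells with RNA, with a median of 6 UMIs, and the most abundant one had the name of the contig's V segment, or either name of the combined label, in 89.9% and 92.2% of them. TRBV3 agreed in 97.3% and 98.7% of cells, and the lowest shares besides TRBV10 were those of TRBV5, at 70.9% and 85.1%. Contigs labelled TRBV10 never had Trbv10 as the leading RNA: 146 of 174 and 227 of 259 such cells led with Trbv4, and no contig was labelled TRBV4. Trbv10 is annotated as a pseudogene and Trbv4 as a V gene. TRBV10 is therefore given as the label of the contigs only. Leaving out TRBV10, agreement was 95.2% and 96.7%. A TRB contig was recovered for 80.5% and 87.0% of all cells with Trbv RNA, and for 82.5% and 83.4% of those led by Trbv3. Among V genes named by contig labels and leading in at least 50 cells of a round, the share ran from 61.1% (Trbv2, Round 1) to 94.9% (Trbv5, Round 2). Segments were thus not recovered equally. Trbv24, which no contig label names, was at 55.6% in Round 1.

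**Figure D5:**
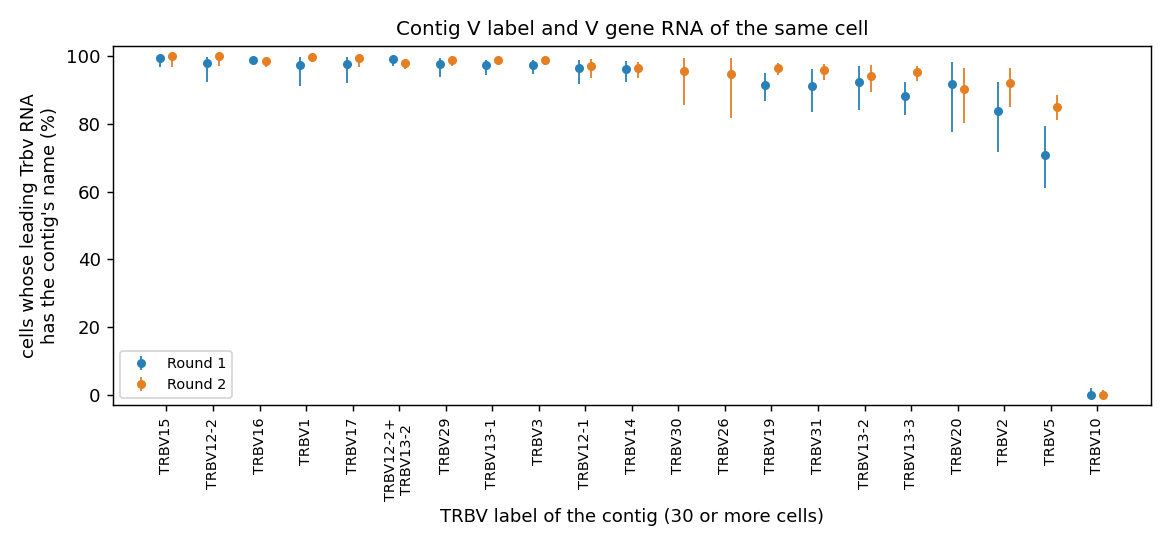
Share of paired cells whose most abundant Trbv RNA has the same name as the V segment of the contig (y axis, percent), by TRBV label with 30 or more cells, for Round 1 (blue) and Round 2 (orange), with exact 95% Clopper-Pearson intervals. All labels lie above 70% in both rounds except TRBV10, at 0%.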

How the data were processed

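Paired scRNA-seq and scTCR-seq libraries (10x 5′) of islet and spleen CD8 T cells were sequenced in 2 rounds with different kits. The authors made the contig tables with Cell Ranger and the GRCm38 V(D)J reference, and deposited UMI and read counts per contig. They also deposited raw UMI counts per gene (mm10; Cell Ranger 5.0.1 in the file header), without normalization. All deposited contigs were productive.

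Barcodes with 1 TRA and 1 TRB contig were grouped into clones, each with the V and J label of most of its cells. Segments in at least 10 clones per round were compared between clones of 3 or more cells and of 1 cell with an exact conditional Cochran-Mantel-Haenszel test stratified by round, with Fisher's exact test per round and Zelen's exact test between rounds, two-sided, with Benjamini-Hochberg adjustment over all tested segments (threshold 0.05). Intervals were Mantel-Haenszel (Robins-Breslow-Greenland) for odds ratios and Clopper-Pearson for shares. A share of 0 was given a limit of 3 counts. The leading Trbv RNA was the gene with most UMIs, the first by name on a tie. Activation was at least 1 UMI over 6 genes. Doublets were treated only by requiring 1 TRA and 1 TRB contig.

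Segments named were those called, the 5 TRBV and 3 TRBJ most used by expanded clones, and those the study names; segments with fewer than 10 clones in a round were listed by the same rule, TRBJ2-5 was called by tetramer, and TRBV1, TRBV5, TRBV10, TRBV15, TRBV16, TRBV17, TRBV20, TRBV31, TRBJ1-2, TRBJ1-3, TRBJ1-5 and TRBJ1-6 were named after their values were seen or as part of a named clone, as were the recurring sequences. The members and lists were chosen with earlier results of these data known. Positions came from GENCODE vM21 (GRCm38) and 35 of the 35 genes matched the identifiers of the count files. Alternatives covered the clone size, filters on barcodes, UMIs and shared clones, the clone definition, the test and the round; 5 were added after the data were seen. Scripts used Python 3.11.15, scipy 1.17.1 and statsmodels 0.14.6 and were tested on simulated clones. Of 1 marker list only Ccr7 and Lef1 are reported here.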

Additional observations from a re-analysis of the deposited data

Results flagged for a closer look

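V gene RNA gave gene names that no contig label carries. Trbv4 was the most abundant Trbv RNA in 269 cells of Round 1 and 366 cells of Round 2, among all cells of the islet IGRP- libraries with Trbv RNA, above the limit of 3 counts, while no TRB contig carried a TRBV4 label. Trbv24, annotated as a pseudogene, was the most abundant in 54 and 29 cells, and no TRB contig carried a TRBV24 label. Most paired cells led by Trbv4 had a contig labelled TRBV10, 146 of 149 in Round 1 and 227 of 229 in Round 2. Of the 19 paired cells led by Trbv24 in Round 1, 13 had that label. The receptors of these paired cells were therefore counted, mostly as TRBV10. Cells without a pair were not counted. Paired cells were 149 of 269 and 229 of 366 of those led by Trbv4, and 19 of 54 and 17 of 29 of those led by Trbv24.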

How the results depend on the processing

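The stratified test made 2 calls, TRBV3 and TRBV13-2. It made 2 also with no replicate block (rounds pooled), where the comparisons by tetramer and by activation kept 5 calls and 1 call. Merging the TRBV13-2 labels left 1 call (TRBV3), leaving out TRAV16N clones 1 (TRBV13-2), and both together 0. Leaving out a round gave 1 to 2 calls, with TRBV3 at an odds ratio of 1.37 without Round 1 and 3.75 without Round 2. Over the other settings that kept its call, TRBV3 ranged from 1.68 to 2.62.

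Calls in Round 1 fell from 2 to 1 with 5 or more cells as expanded, the scRNA-seq filter, clones of tetramer-positive libraries left out, no minimum of clones, 3 UMIs per TRB contig, activated singlets, merged labels or the label of 1 barcode. They fell to 0 without TRAV16N clones, with or without merging. Calls in Round 2 went from 1 to 2 with 2 or more cells as expanded or without TRAV16N clones (TRBV13-1 gained), was 1 with merged labels and no TRAV16N clones (TRBV13-1 in place of TRBV13-2), and went to 0 with 5 or more cells, merged labels or the label of 1 barcode. By tetramer, clones of 2 or more cells gave 4 calls (TRBJ2-1 lost) and either round alone 2 (TRBJ2-1, TRBJ2-5 and TRBJ2-4 lost without Round 1, TRBJ2-1, TRBJ2-5 and TRBJ2-7 lost without Round 2). By activation, either round alone gave 0, and a minimum of 2 UMIs or the scRNA-seq filter gave 2. RNA agreement, 91.4%, was 93.4% at 3 or more Trbv UMIs and 89.9% to 92.2% by round. The causes were not tested.

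Odds ratios of uncalled segments crossed 1. With 2 or more cells as expanded TRBJ2-1 was 0.903, the combined label 1.18 and TRBV19 1.16, and with 5 or more the combined label was 1.04. TRBJ2-1 was 0.992 at 3 UMIs. Against activated singlets TRBJ2-1 was 0.975, the combined label 1.04 and TRBV13-3 1.08. Without TRAV16N clones TRBV13-3 was 1.04, merged or not. By round TRBJ2-1 ranged from 0.993 to 1.13, TRBJ2-7 from 0.970 to 1.23, TRBV13-1 from 0.840 to 1.78, TRBV13-3 from 0.723 to 1.04 and TRBV19 from 0.883 to 1.07. With 158 and 239 expanded clones, a segment in few clones is measured with wide intervals, and intervals on shares cover counting error only.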
